A study of Mus musculus with 2 samples.

Results

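The genes described here encode the secreted and membrane-bound proteases that cut extracellular matrix and their tissue inhibitors: the matrix metalloproteinases (Mmp), the ADAMTS proteases (a disintegrin and metalloproteinase with thrombospondin motifs) and the tissue inhibitors of metalloproteinases (Timp). They were chosen by symbol, as genes named Mmp, Adamts or Timp followed by a number. This gave 45 of the 32285 genes in the tables, made up of 22 Mmp, 19 Adamts and 4 Timp genes. They were measured in single cells of hindlimb muscle from female C57Bl/6J mice aged 24 months. One group received 3 intramuscular injections of all-trans retinoic acid (ATRA), CD3254, an agonist of retinoid X receptor alpha, and BMS961, an agonist of retinoic acid receptor gamma, into the tibialis anterior, gastrocnemius and quadriceps over a week. The other group received the DMSO vehicle in the same way. Live cells were sorted from digested muscle and profiled by 10x Genomics 3′ sequencing, in which each captured RNA molecule is counted once by a unique molecular identifier (UMI).

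Each group was 1 library that pooled cells of 2 mice, and the mice could not be separated, so treatment, library and mice cannot be told apart. No test between the groups was possible. Intervals given here are exact 95% intervals that cover counting error only. After filtering, 6907 ATRA+agonist cells and 6953 DMSO vehicle cells were kept, with medians of 4654 and 4843 UMIs per cell. The libraries shared 43 cell barcodes, 9 of them among kept cells. Levels are given as CPM, the UMIs of a gene scaled to 1000000 UMIs of the cell class. They were not divided by gene length, since 3′ counting is meant to count a molecule once. Whether the levels still depended on gene length was not tested.

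As background, matrix proteases are made mostly as inactive precursors and are held in check by Timp proteins, which block the active site. ADAMTS proteases act on proteoglycans such as versican, on procollagens and on fibrillin-associated matrix, whereas Mmp proteases act on collagens, gelatin, laminin and elastin. In skeletal muscle, this remodeling is carried out around the fibers and vessels by fibro-adipogenic progenitors (FAPs), tenocytes, vascular cells, muscle stem cells (MuSCs) and leukocytes.

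Cells were clustered without the 45 genes and 73 pathway genes, and clusters were named from marker genes with the ending "-like". There were 13 named classes with at least 100 cells. Of these, 9 had at least 100 cells in each library and were compared. The shares of some classes differed widely between libraries. B cell-like cells numbered 622 in the ATRA+agonist library and 45 in the DMSO vehicle library, neutrophil-like cells 20 and 170, and cells with myofiber markers 219 and 1. These classes and the perineurial-like cells (77 and 91) were used for levels but not for comparisons. The perineurial-like cells also carried FAP markers, which summed to 5170 CPM in the ATRA+agonist library and 6172 CPM in the DMSO vehicle library. Their own markers summed to 1358 and 998 CPM. The part of the FAP markers in the levels of this class was not tested.

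The position of the genes was taken from the GENCODE M21 annotation of GRCm38. A run of 9 Mmp genes lay within 427072 bases of chromosome 9, between positions 7272514 and 7699585. In order, these were Mmp13, Mmp12, Mmp1b, Mmp3, Mmp10, Mmp8, Mmp27, Mmp20 and Mmp7. Mmp12 and Mmp13 had their highest level in monocyte or macrophage-like cells, Mmp8 in neutrophil-like cells and Mmp3 in tenocyte-like cells. The stromelysin Mmp10, the enamel protease Mmp20, the matrilysin Mmp7 and Mmp1b had under 30 UMIs over all kept cells.

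Upstream sequence was available from RefSeq (GRCm38.p6) for 31 of the 45 genes, as the 250 bases before a start site. The AP-1 motif TGANTCA, in which N is any base, was found on either strand in 7 of the 31 (22.6%), compared with 7.82% of 27025 genes with such a sequence. All 7 belonged to the chromosome 9 run (Mmp10, Mmp12, Mmp13, Mmp1b, Mmp20, Mmp3 and Mmp7). The retinoid receptor half-site AGGTCA was found in 3 of 31 (9.68%), compared with 15.8% of all genes, and these were Mmp10, Mmp12 and Mmp1b. The GC box GGGCGG was found in 16 of 31 (51.6%), compared with 35.4%. Matches to different motifs were counted separately, also where they overlapped. A match describes letters in this window and is not evidence of a bound site. The 4 sequences printed here, each 5′ to 3′ on the strand of the gene with motif matches in capitals, were chosen after the values were seen. They show the AP-1 match shared by genes of different cells (Mmp3 and Mmp12) and the windows of the genes with the lower level in FAP-like cells (Adamts9) and with opposite ratios in different classes (Timp1). None of them overlaps an annotated exon. Mmp12 had 2 start sites, and the window of the first had no AP-1 match and no half-site. Mmp12 was therefore counted for both motifs through its second start site alone.
Mmp3, chr9:7445572-7445821, plus strand, 1 AP-1 match: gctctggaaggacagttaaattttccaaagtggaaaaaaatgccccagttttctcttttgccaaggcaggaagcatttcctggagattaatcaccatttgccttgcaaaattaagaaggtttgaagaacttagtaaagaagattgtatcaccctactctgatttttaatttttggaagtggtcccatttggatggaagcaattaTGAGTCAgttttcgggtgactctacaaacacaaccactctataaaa
Mmp12, chr9:7347124-7347373, plus strand, the second of 2 start sites, 1 half-site and 1 AP-1 match: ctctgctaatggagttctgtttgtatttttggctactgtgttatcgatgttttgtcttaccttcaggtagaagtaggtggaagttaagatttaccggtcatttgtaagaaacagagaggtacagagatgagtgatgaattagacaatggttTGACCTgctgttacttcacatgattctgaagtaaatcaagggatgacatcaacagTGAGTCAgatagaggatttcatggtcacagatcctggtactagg
Adamts9, chr6:92943535-92943784, minus strand, 1 GC box: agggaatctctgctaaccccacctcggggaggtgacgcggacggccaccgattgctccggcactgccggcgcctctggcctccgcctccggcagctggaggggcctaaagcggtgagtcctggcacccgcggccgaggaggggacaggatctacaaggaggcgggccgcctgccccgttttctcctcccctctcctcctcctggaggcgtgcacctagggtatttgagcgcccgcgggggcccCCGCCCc
Timp1, chrX:20869916-20870165, plus strand, 1 GC box: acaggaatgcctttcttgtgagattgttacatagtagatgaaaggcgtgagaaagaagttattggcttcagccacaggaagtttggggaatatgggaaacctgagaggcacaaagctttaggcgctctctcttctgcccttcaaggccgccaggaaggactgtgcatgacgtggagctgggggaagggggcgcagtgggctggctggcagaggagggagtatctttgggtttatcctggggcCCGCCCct

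Of the 45 genes, 39 had at least 30 UMIs over all kept cells. The class with the highest level, both libraries summed, was tenocyte-like for 7 genes, FAP-like for 6, endothelial-like for 5, smooth muscle or pericyte-like for 5, neural (glial)-like for 4, monocyte or macrophage-like, neutrophil-like and perineurial-like for 3 each, mast cell-like for 2 and MuSC-like for 1. Unnamed clusters were not ranked. For some of these genes the interval of the highest class overlapped that of the next, so their leading class was not resolved. For 25 genes the same class was highest in each library on its own, where only classes with at least 30 cells in that library were ranked. This left out the 20 neutrophil-like cells of the ATRA+agonist library, so Mmp8, Mmp9 and Mmp25 could not be among the 25. The other 6 genes were Adamts13, the protease of von Willebrand factor, with 3 UMIs, Mmp21 with 16, Mmp10 with 4, Mmp20 with 3, Mmp7 with 5 and Mmp1b with 0.

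**Figure D1:**
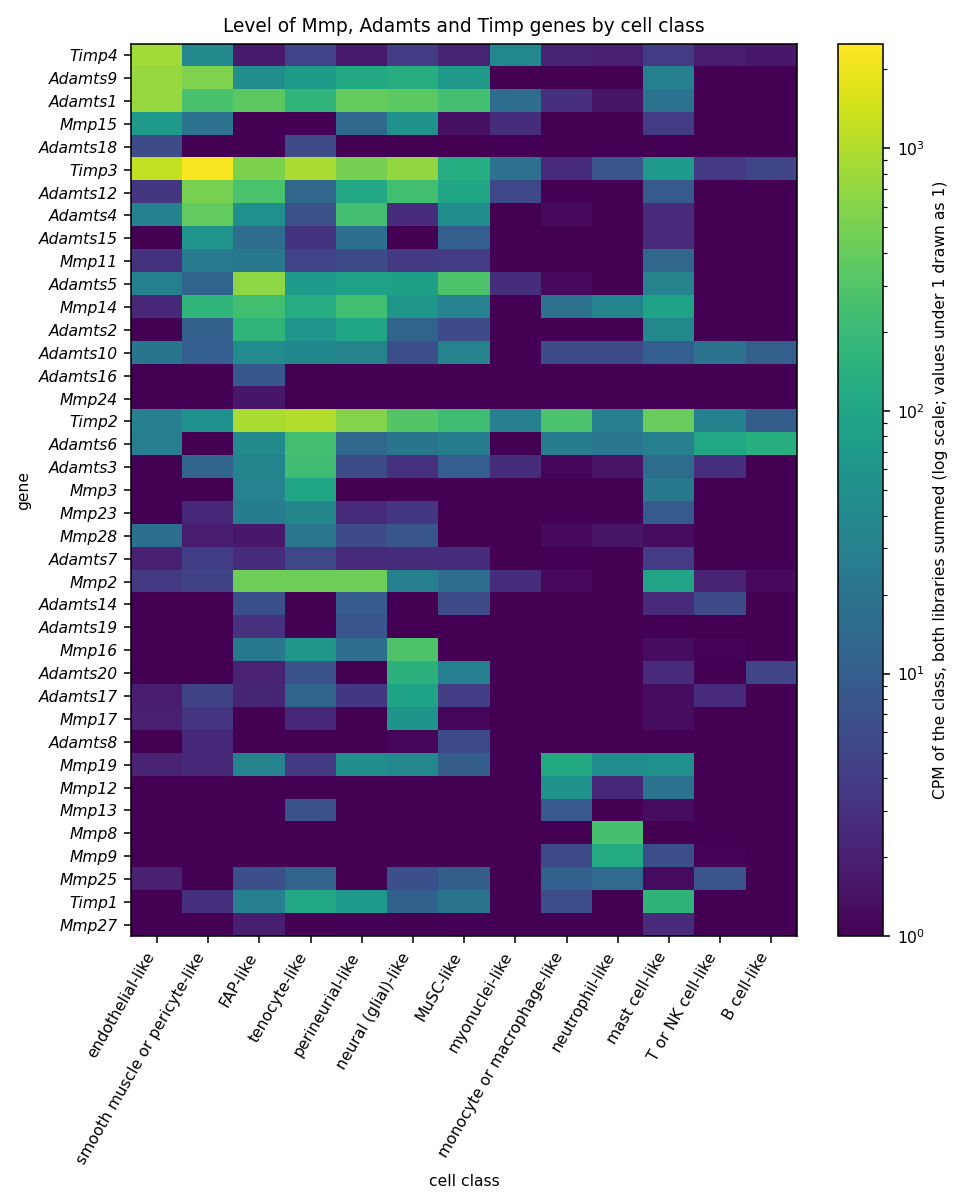
Level of the 39 genes with at least 30 UMIs (vertical axis) in the 13 cell classes (horizontal axis), as CPM of the class with both libraries summed, on a logarithmic color scale from 1 upward. Blocks of genes follow the class with their highest level, and the brightest cell of the map belongs to Timp3, for smooth muscle or pericyte-like cells at 2344 CPM.

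Timp3 and Timp2 had the most UMIs of the 45 genes (45411 and 34727 over all kept cells). Timp3, which binds to the matrix and inhibits ADAMTS proteases as well as Mmp proteases, was highest in smooth muscle or pericyte-like cells, at 1885 CPM in the ATRA+agonist library and 2711 CPM in the DMSO vehicle library. Timp2, a secreted inhibitor that also takes part with Mmp14 in the activation of pro-Mmp2, was highest in tenocyte-like cells (1210 and 930 CPM) and next in FAP-like cells (995 and 846 CPM). Timp4 was an endothelial-like transcript, and 91.1% of its UMIs in kept cells fell in that class (781 and 916 CPM). Timp1 was lower, with at most 124 CPM in any class but the mast cell-like cells. Its leading class was tenocyte-like in the DMSO vehicle library and mast cell-like in the ATRA+agonist library.

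Among the ADAMTS genes, those for proteoglycan-cleaving proteases had vascular, mesenchymal, neural or muscle stem cell classes as their highest. Adamts9 and Adamts1 were highest in endothelial-like cells (756 and 754 CPM over both libraries), with 75.3% and 45.9% of their UMIs there. Adamts5 was highest in FAP-like cells (665 CPM, 83.2% of UMIs), followed by MuSC-like cells (285 CPM). Adamts4 was highest in smooth muscle or pericyte-like cells (386 CPM), as was Adamts15 (58.6 CPM). Adamts20 was highest in neural (glial)-like cells (153 CPM). Adamts8 was highest in MuSC-like cells, at only 5.77 CPM, and its interval overlapped that of the next class.

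The procollagen N-proteinases had different leading classes. Adamts2, the main one for fibrillar procollagen, was highest in FAP-like cells (165 CPM), with perineurial-like cells next (102 CPM). Adamts3, which also processes the lymphatic growth factor VEGF-C, was highest in tenocyte-like cells (227 CPM), well above FAP-like cells (34.5 CPM). Adamts14 reached 9.63 CPM in perineurial-like cells on 11 UMIs, and its interval overlapped that of FAP-like cells (6.73 CPM).

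The remaining ADAMTS genes were spread over several classes. Adamts12, whose product cleaves cartilage oligomeric matrix protein, was highest in smooth muscle or pericyte-like cells (520 CPM). Its relative Adamts7 reached 5.50 CPM in tenocyte-like cells on 23 UMIs, and overlapped smooth muscle or pericyte-like cells (4.25 CPM). Adamts6 was highest in tenocyte-like cells (244 CPM) and next in B cell-like (140 CPM) and T or NK cell-like cells (106 CPM). Adamts10, linked to fibrillin microfibrils, was highest in FAP-like cells (44.0 CPM), but tenocyte-like cells overlapped it (36.3 CPM). Adamts17 was highest in neural (glial)-like cells (93.7 CPM). Adamts16 stood apart, since 95.7% of its 232 UMIs lay in FAP-like cells. Adamts18 (endothelial-like) and Adamts19 (perineurial-like) stayed under 10 CPM in every class, both libraries summed. Adamts18 overlapped tenocyte-like cells. Adamts19, on 9 UMIs in its highest class, overlapped FAP-like cells.

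The collagen- and gelatin-cleaving Mmp genes followed leukocytes or mesenchymal cells. The neutrophil collagenase Mmp8 had 98.5% of its UMIs in neutrophil-like cells, at 47.3 CPM in the 20 ATRA+agonist cells and 277 CPM in the 170 DMSO vehicle cells. The gelatinase Mmp9 was also highest there, at 31.5 and 130 CPM. The other gelatinase, Mmp2, was nearly level between perineurial-like, FAP-like and tenocyte-like cells (446, 445 and 440 CPM), and the first and second could not be ordered. The perineurial-like cells also carried FAP markers, as given above. The collagenase Mmp13 was low in monocyte or macrophage-like cells (8.91 CPM) and overlapped tenocyte-like cells (6.93 CPM).

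The macrophage elastase Mmp12 had 96.3% of its UMIs in monocyte or macrophage-like cells (55.1 CPM), and Mmp19 was highest in the same cells (116 CPM). The stromelysin Mmp3 was highest in tenocyte-like cells (99.0 CPM) and next in FAP-like cells (31.9 CPM). Mmp23 (35.9 CPM) and Mmp28 (21.5 CPM) were also highest in tenocyte-like cells, although Mmp28 overlapped endothelial-like cells (17.4 CPM). Mmp11, a protease activated inside the cell by furin, was at 25.0 CPM in smooth muscle or pericyte-like cells and 23.5 CPM in FAP-like cells, with overlapping intervals.

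The membrane-anchored Mmp genes were divided between classes. Mmp14, which activates pro-Mmp2 at the cell surface, was at 234 CPM in FAP-like cells and 233 CPM in perineurial-like cells. Mmp15 was highest in endothelial-like cells (67.6 CPM) and overlapped neural (glial)-like cells (56.0 CPM). Mmp16 and the lipid-anchored Mmp17 were highest in neural (glial)-like cells (280 and 57.2 CPM). Lipid-anchored Mmp25 was highest in neutrophil-like cells (15.4 CPM), overlapping tenocyte-like cells (12.0 CPM). Mmp24 was at 1.6 CPM in FAP-like cells. Mmp27 was listed highest in mast cell-like cells on 2 UMIs, so its order is not resolved.

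The levels depended in part on clusters left unnamed. In cluster 19 (68 and 110 cells, led by Car3 and Cfd), Adamts2 was at 247 and 230 CPM and Adamts9 at 206 and 139 CPM. Adamts12 was at 781 and 659 CPM there, above the 520 CPM of smooth muscle or pericyte-like cells. In cluster 20 (92 and 79 cells, led by immunoglobulin genes), Mmp25 was at 35.2 and 25.9 CPM on 46 and 22 UMIs. This was above the 15.4 CPM of neutrophil-like cells. Under a lower marker minimum and without the rule on immunoglobulin genes, cluster 19 was called adipocyte-like and cluster 20 dendritic-like. The number of members highest in FAP-like cells was then 3 in place of 6.

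The ratio of the ATRA+agonist library to the DMSO vehicle library was then taken within each class, for genes with at least 100 UMIs over both libraries. A value was called where the levels differed at least 1.5-fold. Over the 9 classes there were 92 such values from 30 members. Of these, 9 were higher in the ATRA+agonist library (9.78%) and 10 were lower (10.9%). Over all genes in the same classes, 3.89% of values were called higher and 4.7% lower. The count of lower values rose to 21 when each cell was thinned to 1000 UMIs, and the counts were 16 higher and 27 lower with a minimum of 30 UMIs. The shares of all genes called under these 2 settings are not given here, so these counts have no background beside them. The median log2 ratio of the 92 values was -0.02, and 43 lay above and 49 below 0.

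In FAP-like cells, 23 members had enough UMIs. Here 3 were called higher (13.0%, compared with 2.22% of 11429 genes) and 2 were called lower (8.70%, compared with 4.55%). Adamts16 was at 11.9 CPM (10.0 to 14) in the ATRA+agonist library and 5.65 CPM (4.44 to 7.09) in the DMSO vehicle library, a log2 ratio of 1.07 (0.66 to 1.5). Adamts15, a versican-cleaving protease, was at 21 and 11.2 CPM, a log2 ratio of 0.91 (0.61 to 1.21). Mmp16 was at 28.7 and 18.6 CPM, a log2 ratio of 0.62 (0.38 to 0.86). All 3 were picked by this ratio, and the intervals cover counting error only.

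The lower pair in FAP-like cells was Adamts9 and Mmp25. Adamts9, another versican-cleaving protease, was at 31.9 CPM (28.8 to 35.2) in the ATRA+agonist library and 63.7 CPM (59.4 to 68.1) in the DMSO vehicle library, a log2 ratio of -0.998 (-1.17 to -0.82). Mmp25 was at 5.22 and 8.4 CPM, a log2 ratio of -0.69 (-1.15 to -0.23). The median log2 ratio of the 23 members was 0.21, compared with 0.02 over all genes tested in the class, and 16 of them lay above 0. The most abundant proteases were within 1.5-fold and went in different directions. The log2 ratios were 0.36 (0.32 to 0.41) for Adamts5, 0.23 (0.18 to 0.28) for Mmp2, -0.26 (-0.32 to -0.20) for Adamts1, 0.02 (-0.05 to 0.09) for Adamts12, 0.17 (0.10 to 0.25) for Mmp14 and 0.26 (0.17 to 0.34) for Adamts2. Median depth was 9749 UMIs per FAP-like cell in the ATRA+agonist library and 7974 in the DMSO vehicle library, and its part in these ratios was not tested.

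**Figure D2:**
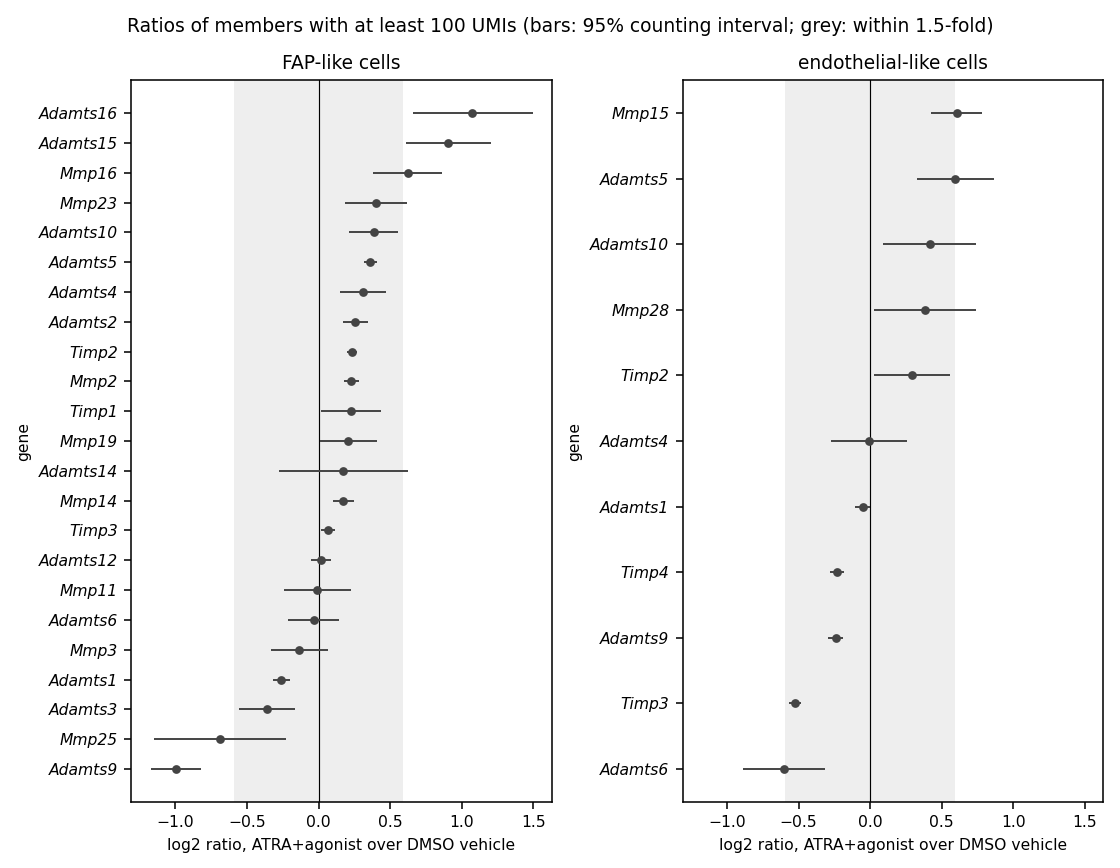
Log2 ratio of the level in the ATRA+agonist library to that in the DMSO vehicle library (horizontal axis) for each member with at least 100 UMIs (vertical axis), in FAP-like cells on the left and endothelial-like cells on the right. Bars are 95% counting intervals and the grey band marks less than 1.5-fold, and Adamts16, Adamts15 and Mmp16 lie to the right of it in FAP-like cells with Adamts9 and Mmp25 to the left.

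FAP-like cells formed 3 clusters, led by Cxcl14, Smoc2 and Mme (cluster 1), by Gdf10 and Fst (cluster 6) and by Sema3c and Pi16 (cluster 7). Cluster 6 carried only 3 of 8 FAP markers above the other cells. The clusters were examined after the values by class were seen. Adamts9 was lower in the ATRA+agonist library in each of them. It was at 42.0 and 71.2 CPM in cluster 1, a log2 ratio of -0.76 (-0.98 to -0.54). In cluster 6 it was at 41.2 and 81.0 CPM, a log2 ratio of -0.98 (-1.32 to -0.65). In cluster 7 it was at 4.53 CPM on 15 UMIs and 31.9 CPM on 109 UMIs, a log2 ratio of -2.82 (-3.70 to -2.03).

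Adamts16 was almost restricted to cluster 7, which held 146 of its 148 UMIs in ATRA+agonist FAP-like cells and 74 of 74 in DMSO vehicle FAP-like cells. Its level there was 44.0 and 21.7 CPM, a log2 ratio of 1.02 (0.61 to 1.45). Adamts15 was at 36.2 and 11.1 CPM in cluster 7, a log2 ratio of 1.70 (1.17 to 2.27). In cluster 1 Adamts15 was at 18.9 and 13.6 CPM, a log2 ratio of 0.48 (0.06 to 0.90) that was within 1.5-fold. In cluster 6, on 43 UMIs, it was at 6.46 and 7.39 CPM, with a log2 ratio of -0.19 (-1.19 to 0.75).

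Cluster 7 was also the cluster with the highest levels of Adamts5 (1201 and 907 CPM) and Timp2 (1663 and 1248 CPM), both with a log2 ratio of 0.41. Mmp3 was highest in cluster 6, at 83.1 and 88.4 CPM. In cluster 1 it was lower, at 20.7 and 11.3 CPM, with a log2 ratio of 0.88 (0.45 to 1.32). In all, 1 member was called higher and 1 lower of 21 in cluster 1 (all genes 1.93% and 4.44%). Of 19 in cluster 6, 3 were higher and 1 lower (3.07% and 3.8%), and of 18 in cluster 7, 3 were higher and 1 lower (3.31% and 4.4%).

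**Figure D3:**
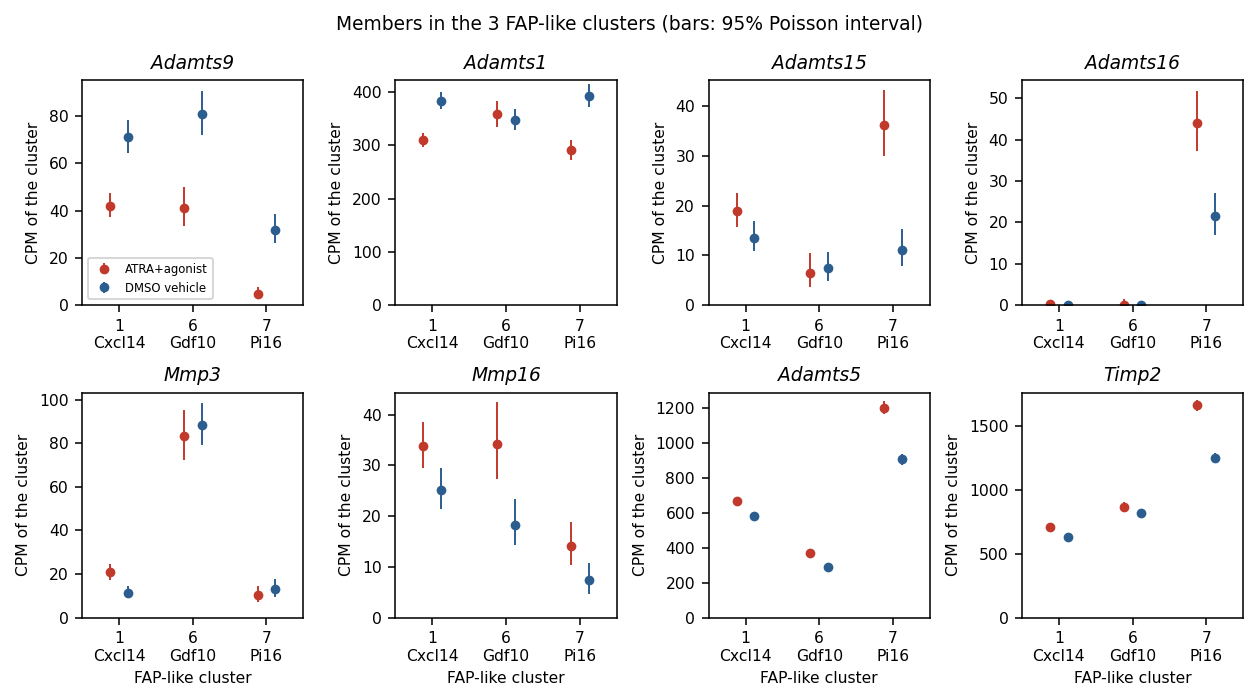
Level of 8 members (CPM of the cluster, linear axes from 0) in the 3 FAP-like clusters, red for the ATRA+agonist library and blue for the DMSO vehicle library, with bars for 95% Poisson intervals. Adamts9 is lower in the ATRA+agonist library in each cluster, and Adamts16 appears in cluster 7 alone apart from 2 UMIs in cluster 1.

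In endothelial-like cells, 11 members had enough UMIs. Of these, 2 were called higher (18.2%, compared with 4.24% of 9724 genes) and 1 lower (9.09%, compared with 3.28%). The membrane protease Mmp15 was at 82.8 and 54.4 CPM, a log2 ratio of 0.61 (0.43 to 0.79). Adamts5 was at 37.6 and 24.9 CPM, a log2 ratio of 0.60 (0.33 to 0.87). Adamts6 was at 22.0 and 33.3 CPM, a log2 ratio of -0.60 (-0.89 to -0.31). All were just past 1.5-fold.

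The makeup of the endothelial-like class also differed between the libraries, and its part in these calls was not tested. Cluster 0, led by Aqp1, Kdr and Gpihbp1, accounted for 81.1% of the endothelial-like cells of the ATRA+agonist library and 34.0% of those of the DMSO vehicle library. Cluster 2, led by the interferon-responsive genes Cd274, Gbp4 and Rsad2, held 3.80% and 46.8%. Within cluster 0 none of the 3 calls was past 1.5-fold, with log2 ratios of 0.06 (-0.17 to 0.28) for Mmp15, 0.03 (-0.29 to 0.36) for Adamts5 and 0.01 (-0.50 to 0.53) for Adamts6. Instead, Timp4 (937 and 1497 CPM, log2 ratio -0.68) and Timp3 (1001 and 1539 CPM, log2 ratio -0.62) were called lower there and Mmp28 (20.6 and 13.7 CPM, log2 ratio 0.59) was called higher. This was 2 lower and 1 higher of 10 members, compared with 1.79% and 4.34% of all genes in the cluster. Adamts1 and Adamts9 had log2 ratios of -0.26 and -0.37 in cluster 0 but of 0.58 and 0.45 in cluster 2, where the ATRA+agonist library had only 75 cells. In clusters 12, 15 and 23, also endothelial-like, Adamts1 had log2 ratios of 0.29, -0.59 and 0.01 and Adamts9 of -0.38, -0.84 and -0.59. Adamts6 had -1.27, -0.81 and -1.75 there, each on under 100 UMIs, and 0.43 in cluster 2. Mmp15 had -0.97 in cluster 15, on 48 UMIs. In cluster 2, 1 of 6 members was called higher (Mmp15, on 20 and 158 UMIs) and none lower, compared with 8.37% and 13.3% of all genes.

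In MuSC-like cells, Timp3 was the only member called of 13 (7.69% lower, compared with 3.11% of all genes, and none higher, compared with 3.96%). It was at 87.7 CPM (77.9 to 98.4) in the ATRA+agonist library and 161 CPM (149 to 174) in the DMSO vehicle library, a log2 ratio of -0.88 (-1.08 to -0.68). In monocyte or macrophage-like cells Timp3 was at 2.91 and 2.48 CPM. It was lower in the ATRA+agonist library in mast cell-like and T or NK cell-like cells, each on under 100 UMIs. Barcodes with under 300 genes had Timp3 at 46.7 and 75.3 CPM of their UMIs outside hemoglobin, on 26 and 137 UMIs. The part of free RNA in the MuSC-like ratio was not tested. Adamts5, the most abundant protease of the family in MuSC-like cells, was at 254 and 310 CPM, a log2 ratio of -0.29 (-0.41 to -0.16). Adamts12 was at 118 and 86.0 CPM, a log2 ratio of 0.46 (0.25 to 0.67). Timp4 was not seen in the ATRA+agonist MuSC-like cells and had 16 UMIs in the DMSO vehicle cells.

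In tenocyte-like cells, 1 of 15 members was called higher (6.67%, compared with 3.8% of all genes) and 3 were called lower (compared with 7.03%). Mmp23 was at 54.2 and 28.3 CPM, a log2 ratio of 0.94 (0.45 to 1.42). Timp1 was at 70.7 and 124 CPM, a log2 ratio of -0.81 (-1.16 to -0.47). Timp3 was at 669 and 1029 CPM, a log2 ratio of -0.62 (-0.74 to -0.51). Mmp3 was at 67.4 and 112 CPM, a log2 ratio of -0.73 (-1.10 to -0.38), but it was found in 13 and 33 cells, and the 10 cells with most UMIs held 96.3% and 87.3% of them. Its ratio changed sign to 0.094 when 15% of cells were removed as doublets, and Timp1 changed sign to 1.37 when no upper limit was set on genes per cell. Adamts3 (287 and 203 CPM) and Timp2 were within 1.5-fold, with log2 ratios of 0.50 (0.31 to 0.69) and 0.38 (0.29 to 0.47).

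In smooth muscle or pericyte-like cells, Adamts4 was the only member called of 8 (12.5% higher, compared with 3.25% of all genes, and none lower, compared with 5.04%). This versican- and aggrecan-cleaving protease was at 492 CPM (448 to 539) in the ATRA+agonist library and 302 CPM (272 to 336) in the DMSO vehicle library, a log2 ratio of 0.70 (0.50 to 0.90). It was found in 82 ATRA+agonist and 141 DMSO vehicle cells, and the 10 cells with most UMIs held 48.3% and 19.9% of them. Mmp14 was at 204 and 148 CPM, a log2 ratio of 0.47 (0.16 to 0.77).

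In monocyte or macrophage-like cells none of 6 members was called, against 2.11% of all genes called higher and 2.44% lower. Their median log2 ratio was -0.42, compared with 0.02 over all genes tested in the class. Mmp12 was at 47.1 and 66.6 CPM, a log2 ratio of -0.50 (-0.75 to -0.25), and the 10 cells with most UMIs held 80.7% and 75.5% of them. Mmp19 was at 99.3 and 140 CPM, a log2 ratio of -0.49 (-0.66 to -0.32). In T or NK cell-like cells, only Adamts6 had 100 UMIs. It was called higher, at 117 and 73.3 CPM, a log2 ratio of 0.67 (0.23 to 1.14), in a class in which 6.94% of all genes were called higher and 7.77% lower.

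In neural (glial)-like cells, 3 of 13 members were called lower (23.1%, compared with 7.34% of all genes) and none higher (compared with 4.3%). Mmp16 was at 70.1 CPM (51.9 to 92.7) in the ATRA+agonist library and 356 CPM (330 to 384) in the DMSO vehicle library, a log2 ratio of -2.34 (-2.79 to -1.93). Mmp19 was at 8.59 CPM on 6 UMIs and 49.8 CPM on 96 UMIs, a log2 ratio of -2.54 (-4.02 to -1.36). Adamts5 was at 51.5 and 98.1 CPM, a log2 ratio of -0.93 (-1.49 to -0.41).

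Macrophage markers in these cells also differed between the libraries, and their part in these values was not tested. The 8 monocyte or macrophage markers summed to 162 CPM in ATRA+agonist and 2163 CPM in DMSO vehicle neural (glial)-like cells, with 2 and 1 of the 8 at 0. Without cells that held 5 or more UMIs of these markers (6 and 114 cells), the log2 ratio was -0.64 (-1.19 to -0.12) for Mmp16, -0.38 (-1.01 to 0.21) for Adamts5 and -2.51 (-4.01 to -1.31) for Mmp19. Of the 686 DMSO vehicle UMIs of Mmp16, 572 were in the cells left out. Mmp16 was concentrated in the neural cluster led by Csmd3 and Chl1 (cluster 17), at 190 and 655 CPM, compared with 8.65 and 6.75 CPM in the other neural cluster (cluster 14). Cluster 17 made up 32.1% of the class in the ATRA+agonist library and 46.6% in the DMSO vehicle library. In cluster 17, 1 of 9 members was higher and 3 were lower (all genes 5.83% and 11.4%). In cluster 14, 1 of 7 was higher and none lower (3.04% and 5.23%). Adamts9 had opposite ratios in the 2 clusters, at 162 and 55.1 CPM in cluster 14 and 80.4 and 189 CPM in cluster 17.

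In mast cell-like cells, Timp1 was called higher, as 1 of 2 members with enough UMIs, in a class in which 17.5% of all genes were called higher and 6.97% lower. It was at 248 CPM on 117 UMIs in the ATRA+agonist library and 23.8 CPM on 7 UMIs in the DMSO vehicle library, a log2 ratio of 3.38 (2.29 to 4.73). These UMIs came from 16 and 5 cells, and the 10 cells with most UMIs held 94.9% of those in the ATRA+agonist library. Without cells that held 5 or more UMIs of the FAP markers (51 and 34 cells), 7 and 3 UMIs of Timp1 were left. The mast cell markers summed to 21051 and 6570 CPM, and median depth was 1387 and 1433 UMIs per cell.

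The 4 inhibitors can be set side by side over the compared classes. Timp3 was lower in the ATRA+agonist library by a similar ratio in 3 vascular and tendon classes, with log2 ratios of -0.52 (-0.57 to -0.48) in endothelial-like cells, -0.52 (-0.61 to -0.44) in smooth muscle or pericyte-like cells and -0.62 (-0.74 to -0.51) in tenocyte-like cells, and by more in MuSC-like cells. It was near level in FAP-like (0.07) and neural (glial)-like cells (0.09). In mast cell-like cells it was at 55.1 and 91.9 CPM and in T or NK cell-like cells at 1.45 and 10.1 CPM, on under 100 UMIs. In endothelial-like cells, the class with the most Timp3 UMIs, the levels were 979 and 1406 CPM. Within clusters 0, 2, 15 and 23 of that class, the log2 ratios of Timp3 were -0.62, -0.54, -0.38 and -0.91. In cluster 12 it was 0.01.

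Timp4 had a log2 ratio of -0.23 (-0.28 to -0.18) in endothelial-like cells. Within clusters of this class it was -0.68 (-0.74 to -0.62) in cluster 0 and -0.53 (-0.76 to -0.30) in cluster 2. It was -0.33 (-0.92 to 0.25) in cluster 15 and 0.17 (-0.42 to 0.73) in cluster 12. Cluster 0 made up 81.1% of the class in the ATRA+agonist library and 34.0% in the DMSO vehicle library, and its part in the class value was not tested. A cluster of shallow cells left unnamed, with a median of 819 UMIs and all 9 endothelial markers (cluster 3), had Timp4 at 983 and 1365 CPM, a log2 ratio of -0.47 (-0.65 to -0.29). Timp4 in smooth muscle or pericyte-like cells was at 31.9 and 45.9 CPM. In the 7 other compared classes Timp4 stayed under 10 CPM in both libraries.

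Timp2 was within 1.5-fold in each compared class in which it had 100 UMIs. Its log2 ratio was 0.23 (0.20 to 0.27) in FAP-like, 0.38 (0.29 to 0.47) in tenocyte-like, 0.29 (0.02 to 0.56) in endothelial-like, 0.03 in MuSC-like, -0.21 (-0.32 to -0.10) in monocyte or macrophage-like, -0.25 (-0.83 to 0.32) in smooth muscle or pericyte-like, -0.01 in neural (glial)-like and 0.09 in mast cell-like cells. In T or NK cell-like cells it was at 36.7 and 14.4 CPM on 76 and 10 UMIs. Timp1 was within 1.5-fold in FAP-like (31.5 and 26.9 CPM) and MuSC-like cells (16.8 and 23.0 CPM). It was at 0.42 and 0.85 CPM in endothelial-like, 5.32 and 0.85 CPM in smooth muscle or pericyte-like, 5.83 and 7.18 CPM in monocyte or macrophage-like and 12.9 and 10.9 CPM in neural (glial)-like cells, and had no UMI in T or NK cell-like cells.

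**Figure D4:**
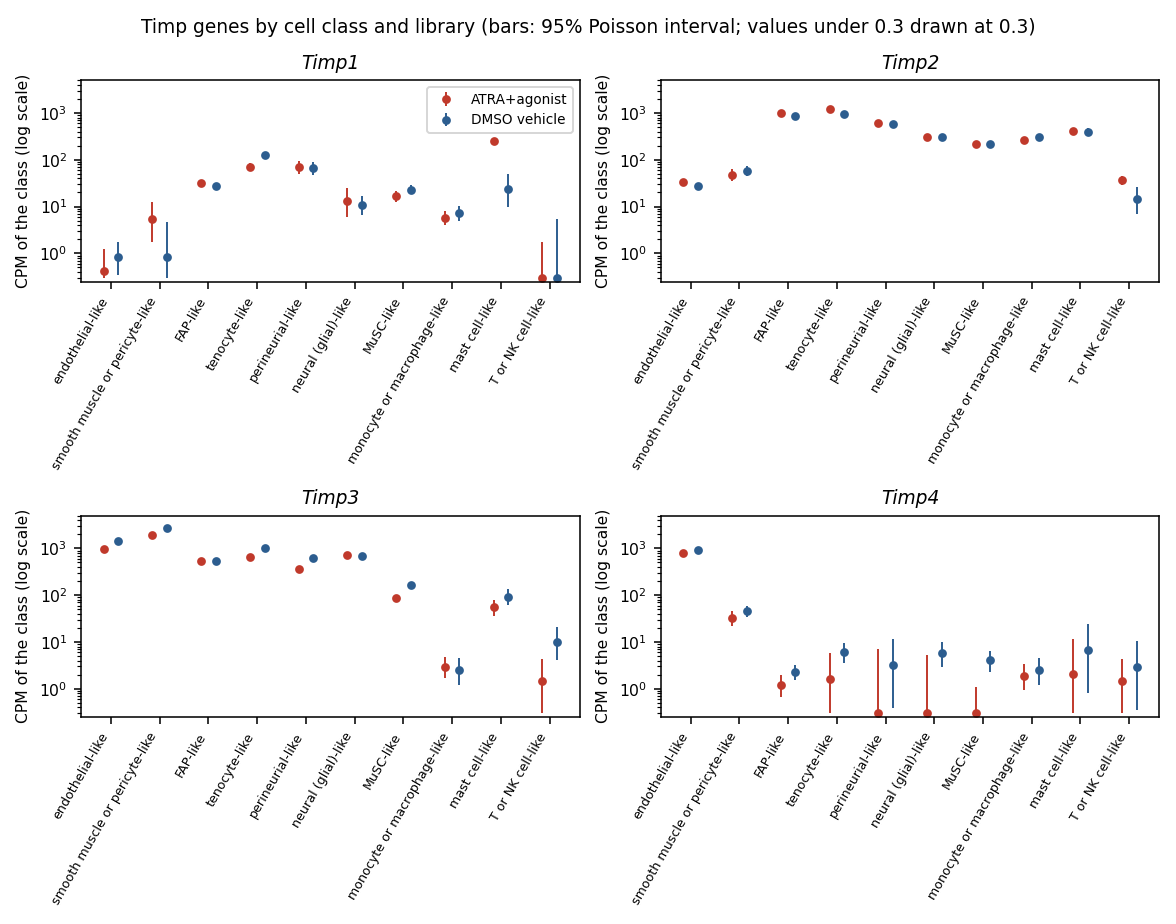
Level of Timp1, Timp2, Timp3 and Timp4 (CPM of the class, logarithmic axis) in 10 cell classes, red for the ATRA+agonist library and blue for the DMSO vehicle library, with bars for 95% Poisson intervals and values under 0.3 drawn at 0.3. Timp3 is lower in the ATRA+agonist library in endothelial-like, smooth muscle or pericyte-like, tenocyte-like and MuSC-like cells, and Timp1 stands apart between libraries in mast cell-like cells.

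Barcodes with under 300 genes gave a gauge of free RNA. Hemoglobin transcripts took 96.4% of their UMIs in the ATRA+agonist and 96.6% in the DMSO vehicle library. As CPM of the other UMIs, the 45 genes together were at 261 and 278, Timp3 at 46.7 and 75.3 and Timp4 at 44.9 and 62.7. Timp3 had 26 and 137 UMIs there and Timp4 had 25 and 114. As CPM of all UMIs of these barcodes, Timp3 was at 1.70 (1.11 to 2.49) and 2.59 (2.17 to 3.06). Timp4 was at 1.64 (1.06 to 2.41) and 2.15 (1.78 to 2.59), and the intervals of both genes overlapped between the libraries. Timp1 had 0 and 3 UMIs. Timp2 was higher in the ATRA+agonist library, at 46.7 and 36.3 CPM of the other UMIs. The part of free RNA in the ratios was not tested.

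Other genes of matrix proteolysis were read from 9 pathway lists with 73 genes. Over the compared classes, 289 values had at least 100 UMIs, of which 29 were higher and 22 lower (all genes 3.89% and 4.7%), with a median log2 ratio of 0.04. In FAP-like cells, 2 of 58 were higher and 2 lower (all genes 2.22% and 4.55%), shares near those of all genes. The cystatin Cst6, an inhibitor of cysteine proteases, was at 7.95 and 2.82 CPM (log2 ratio 1.49), and the membrane protease Adam19 was at 120 and 75.6 CPM (0.66). Thrombospondin 1 (Thbs1) was at 121 and 248 CPM (-1.03) and the collagen cross-linking enzyme Lox at 84.1 and 132 CPM (-0.66).

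In endothelial-like cells, 6 of 38 pathway genes were higher and 2 lower (all genes 4.24% and 3.28%). Thbs1 was lower (6.12 and 15.3 CPM, log2 ratio -1.32). The highest log2 ratios were those of Adam19 (1.35), the cathepsin Ctsh (1.01) and Pcolce, an enhancer of procollagen C-proteinase (0.78). In MuSC-like cells, 3 of 39 were higher and 7 lower (all genes 3.96% and 3.11%). The urokinase receptor Plaur was at 41.7 and 93.8 CPM (-1.17), and Pcolce2 (-0.84) and the lysyl oxidase Loxl2 (-0.75) were next. The membrane protease Adam12 was at 27.9 and 14.2 CPM (0.98), followed by Pcolce (0.73) and Thbs2 (0.59).

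In tenocyte-like cells, 6 of 43 pathway genes were higher and 2 lower (all genes 3.8% and 7.03%). The membrane protease Adam10 was lower (38.6 and 64.7 CPM, -0.75). Plat, the tissue plasminogen activator, was higher (146 and 74.9 CPM, 0.97), as were Pcolce2 (0.81) and Pcolce (0.74). In smooth muscle or pericyte-like cells, 2 of 25 were higher (Pcolce 0.78 and the cathepsin Ctsz 0.69) and 1 was lower (Loxl2 -0.59), compared with 3.25% and 5.04% of all genes. In neural (glial)-like cells, 3 of 26 were higher (Adamtsl1 0.80, the serine protease inhibitor Serpine2 0.73 and Adam19 0.67) and 4 lower, led by Adam12 (-1.27), the cystatin Cst3 (-1.10) and the clearance receptor Lrp1 (-1.02), compared with 4.3% and 7.34% of all genes. The macrophage markers at 162 and 2163 CPM in these cells stand beside these values too, and their part was not tested.

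Among leukocytes, the lysosomal protease Ctsl was the single pathway gene called of 28 in monocyte or macrophage-like cells, at 180 and 356 CPM (-0.99), in a class with 2.11% and 2.44% of all genes called higher and lower. In T or NK cell-like cells, 1 of 15 was higher (the cathepsin Ctss, 1.10) and 3 were lower (Adam19 -1.66, Anxa2 -1.43 and S100a10 -0.84), compared with 6.94% and 7.77% of all genes. Anxa2 and S100a10, which together form a plasminogen receptor, were among the 6 of 17 higher in mast cell-like cells (1.53 and 1.19), with fibronectin (Fn1) at 1.48, and none was lower there (all genes 17.5% and 6.97%). Markers of other classes were present in these cells, with the monocyte or macrophage markers at 5568 and 4008 CPM and the FAP markers at 2598 and 2440 CPM, and their part was not tested.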

How the data were processed

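The deposited files were UMI counts per gene and cell barcode from 1 library per group, made by the authors with 10x Genomics chemistry and, per the file headers, Cell Ranger 7.2.0. The builds listed in the labels were GRCm38 and mm10, and the annotation release is not given in the sources used here. The labels also describe a SMART-Seq kit and kallisto, which differ from the matrices.

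The tables held 10444 and 17394 barcodes with 65197625 and 109343486 UMIs. Cells with 300 to 5000 genes, under 20% mitochondrial and under 0.25% Hbb UMIs were kept, and 7.5% were removed as doublets by a nearest-neighbor score rebuilt for this work. Louvain clustering (resolution 0.8, 30 components of 2000 variable genes) left out the 118 member and pathway genes. A cluster was named from at least 3 markers enriched 2-fold with at least 20 UMIs each. It was left unnamed where another class or immunoglobulin genes led, or where it was shallow with no leading marker of its own. The UMI minimum (first set at 10) and the immunoglobulin rule were set after the clusters and the members' levels had been seen.

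UMIs were summed per class and library. Exact Poisson, binomial and conditional intervals (95%) were computed with scipy 1.17.1, numpy 2.4.6, scikit-learn 1.9.0 and python-igraph 0.11.9 in Python 3.11.15, and ratios were tested on simulated data. Members were named where at least 100 UMIs and 1.5-fold were reached, with all Timp genes and every member's highest class. Pathway genes were named where they were among the 3 largest rises or falls of a class past 1.5-fold. Some genes that met this rule are not reported here. The members and lists were chosen with earlier results of these data known.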

Additional observations from a re-analysis of the deposited data

Results flagged for a closer look

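Members with at least 1.5-fold ratios of opposite direction in different classes were singled out. Each class had 1 library per group, so these differences between classes were not tested. Adamts6 had a log2 ratio of -0.60 in endothelial-like and 0.67 in T or NK cell-like cells. Adamts5 had 0.60 in endothelial-like and -0.93 in neural (glial)-like cells. Mmp16 had 0.62 in FAP-like and -2.34 in neural (glial)-like cells. Timp1 had -0.81 in tenocyte-like and 3.38 in mast cell-like cells. Of these, the endothelial-like ratios of Adamts5 and Adamts6 were 0.03 and 0.01 within cluster 0. Adamts6 was at -1.27, -0.81 and -1.75 in clusters 12, 15 and 23, each on under 100 UMIs, and at 0.43 in cluster 2. Without cells that held 5 or more UMIs of another class's markers, the neural (glial)-like values were -0.64 for Mmp16 and -0.38 for Adamts5. The mast cell-like value of Timp1 was then 0.58, on 7 and 3 UMIs only. This removal was chosen after seeing the data, and the part of the removed cells was not tested.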

How the results depend on the processing

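No paired analysis was possible because each group was 1 library, and no replicate could be left out. The count of 9 higher and 10 lower member values became 2 and 2 at a 2-fold call and 16 and 27 with a minimum of 30 UMIs, where more low-count values enter. The shares of all genes called under the changed settings are not given here, so the changed counts have no background beside them. With each cell thinned to 1000 UMIs, 21 values were lower, and the cause was not tested. The number of members highest in FAP-like cells, 6, was 10 at resolution 1.6 and with 15% of cells removed as doublets, and 3 with the marker minimum of 10 UMIs and no immunoglobulin rule, under which 2 more clusters were named. This last setting and the marker-based removal of cells were chosen after seeing the data. Mmp3 in tenocyte-like cells changed sign to 0.094 with 15% of cells removed as doublets and to 0.49 after thinning, and Timp1 in tenocyte-like cells changed sign to 1.37 without a maximum of genes. The other summary values (73) stayed within their limits, as did 475 ratios of single members, and 57 ratios moved beyond their counting interval without a change of sign in any called value. Depth limits the low genes, since 15 of the 45 members had under 100 UMIs in every compared class. With 1 library per group, differences between mice and libraries could not be measured.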
